A study of Mus musculus with 6 samples.

Results

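The genes for the proteins of the cytosolic ribosome were followed in a profile of acetylated histone H3 (H3ac) of mouse bone mesenchymal stem cells (MSCs). The genes were taken by name from the GENCODE M21 annotation of the mm10 genome, as protein-coding autosomal genes named Rps or Rpl with a number, plus Rpsa, Rplp0, Rplp1 and Rplp2. This rule gave 79 genes, 31 of the small (40S) and 48 of the large (60S) subunit, and left out 4 ribosomal protein genes off the autosomes. Of the 79 genes, 74 had an H3ac region that contained or lay within 1 kb of a start site. These were 74 of the 24431 regions in the table and of the 11165 regions near a protein-coding start site, called promoter regions here.

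H3ac was measured by CUT&RUN, in which an antibody directs a nuclease to marked chromatin and the released fragments are sequenced. The Young MSCs were taken at 3 to 5 months of mouse age and the Old MSCs at 18 to 22 months, both untreated. The OldAcetate MSCs, of the same age range as Old, had 3 days of sodium acetate at 5 mM. All MSCs were cultured at 2% O2, each group had 2 libraries, and the labels used here give no genotype or strain and do not say whether the replicates came from separate animals, so p-values measure the spread between these libraries, which may be technical.

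Ribosomal protein genes are among the most heavily transcribed genes of growing cells, and their products are needed in equal numbers because each ribosome holds a single copy of most of them. Their mRNAs commonly start with a C followed by a run of C and T, the 5′ terminal oligopyrimidine (TOP) tract, through which mTORC1 and Larp1 control their translation. Acetylation of histone H3 marks the nucleosomes around active start sites. In bone MSCs, ribosome supply matters for matrix secretion and for growth during differentiation.

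The libraries held between 2163351 and 3039481 reads, and values are given as RPM, the reads in a region scaled to the library total. The share of a library inside the regions was lower in both Old libraries, at 49.9% and 45.9%, than in the other 4, where it lay between 56.3% and 64.8%. The part of this difference in the results below was not tested beyond scaling it out. All 10 MSC markers had a region, against 2 of 7 hematopoietic markers, whose summed value ran from 15.5 to 32.2 RPM, and the defining markers Ptprc, Itgam, Adgre1 and Cd3e had none. The median ribosomal protein region held 60.5 reads over regions and libraries, which sets a counting error of 12.9%.

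The start sites of the ribosomal protein genes were examined first, for the letters they share. RefSeq promoters on build GRCm38.p6, from 250 bases before to 50 after the start site, matched 59 of the 79 genes by symbol. The promoters of the other genes were not analysed here. A run of at least 5 C or T bases at the annotated start was found in 16 of the 59, or 27.1%, against 4.70% of 16522 genes. The ETS-type word CCGGAA stood on either strand in 33, or 55.9%, against 21.5% of all genes. The shares were 16.9% against 7.26% for CCATCTT, the core word of YY1 sites, and 61.0% against 51.0% for GGGCGG, the core of SP1 sites. CACGTG, the E-box bound by Myc, stood in 10.2% against 9.18%, and TATAAA, the TATA box, in 8.47% against 14.3%. All words were searched on both strands, no word contains another, and each match describes letters and not a bound site.

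The 5 promoters below, 60 bases before and 20 after the start site, are shown 5′ to 3′ on the gene's strand. The first 3 carry the longest C and T runs, and the last 2 belong to the genes with the largest differences between groups described further on. Capitals mark a C and T run of at least 5 bases at the start site, and the words CCGGAA and GGGCGG on either strand. Rpl27a lies at chr7:109519135-109519214 on the plus strand, Rpl15 at chr14:18270967-18271046 on the minus strand, Rpl35 at chr2:39005112-39005191 on the minus strand, Rpl31 at chr1:39367791-39367870 on the plus strand and Rps27l at chr9:66946026-66946105 on the plus strand.
Rpl27a: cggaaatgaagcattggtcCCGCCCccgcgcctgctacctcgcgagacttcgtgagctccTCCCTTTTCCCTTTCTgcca
Rpl15: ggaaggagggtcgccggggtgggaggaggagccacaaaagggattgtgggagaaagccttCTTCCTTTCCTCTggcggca
Rpl35: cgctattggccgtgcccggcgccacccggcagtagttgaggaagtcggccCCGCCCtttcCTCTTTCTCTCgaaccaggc
Rpl31: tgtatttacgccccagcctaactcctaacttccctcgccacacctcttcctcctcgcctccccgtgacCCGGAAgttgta
Rps27l: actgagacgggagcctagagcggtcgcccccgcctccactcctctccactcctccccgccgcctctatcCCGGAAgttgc
The runs at the start site span 16 bases in Rpl27a, 13 in Rpl15 and 11 in Rpl35. Rpl31 and Rps27l have shorter runs, of 3 and 0 bases, counted from the annotated start on. In Rpl31, as in Rpl27a, Rpl15 and Rpl35, the C and T stretch begins before that start. Both carry CCGGAA within the first bases of the transcript.

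Nearly every ribosomal protein gene lay under H3ac. The share with a region was 93.7%, against 58.6% of the 20807 autosomal protein-coding genes, and in all 74 regions the start site lay inside. Small and large subunit genes were alike in this, with 30 of 31 and 44 of 48 genes. The region codes named all 3 groups for 71 of the 74 regions, or 95.9%, against 91.1% of promoter regions. The other 3, over Rps27, Rpl26 and Rpl3, were coded for Young and OldAcetate, reading Y, O and AC as the groups.

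The 5 genes without a region were Rpl4, Rps26, Rpl3l, Rpl10l and Rpl39l. Rpl3l, Rpl10l and Rpl39l are tissue-restricted copies, known from muscle and testis, of broadly used ribosomal protein genes. The nearest region lay 2.316 kb from a start site of Rpl3l and belonged to Msrb1, and the nearest regions to Rpl39l and Rpl10l lay 21.3 kb and 1110 kb away. Rpl4 and Rps26 are core proteins of the large and small subunit. Their nearest regions, over Lctl and Suox, lay 54.9 kb and 41.3 kb away. The table used here may not hold every region, so a gene without a region is not shown to lack H3ac.

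The regions were long and the genes short. The median ribosomal protein region was 9250 bp long, with a range from 3000 to 58500 bp, against a median of 5500 bp for promoter regions. It reached a median of 1692 bp before and 5495 bp after the start site, taken as the most upstream annotated one inside the region. For Rpl35 that start differs from the RefSeq start shown above. The genes themselves had a median length of 3399.5 bp, against 24465 bp for all protein-coding genes with a region. In 52 of 75 gene and region pairs, or 69.3%, the whole gene lay inside its region, against 10.3% over all promoter regions. Intronic snoRNAs, which guide chemical modification of ribosomal RNA, lay inside the genes of 26 regions, 51 snoRNAs in all.

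**Figure D1:**
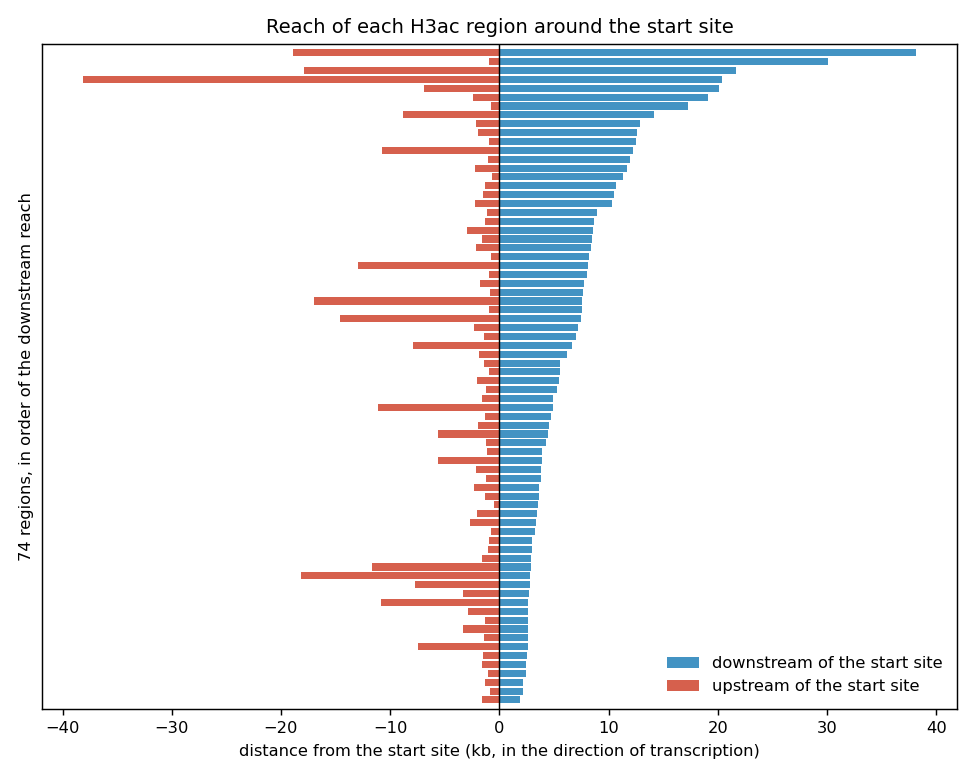
The bars show how far each of the 74 H3ac regions reached upstream (red) and downstream (blue) of the ribosomal protein gene's start site, in kb, in order of the downstream reach. Most regions reached farther downstream, with medians of 1692 bp before and 5495 bp after the start site, and a region shared by neighbouring members is drawn from 1 start site. Of several annotated start sites inside a region, the most upstream was used.

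Many of these regions were not private to the ribosomal protein gene. Only 38 of the 74, or 51.4%, held no start site of another protein-coding gene, against 83.5% of promoter regions with 1 gene. The 57 kb region over Rplp2 also held the start sites of 8 other genes, Cd151 and Pnpla2 among them. Regions of 20 kb or more made up 12 of the 74, or 16.2%, against 9.43% of promoter regions. Rps14 had both a region of 58.5 kb over an upstream start site beside Ndst1 and one of 4.5 kb over its downstream start site.

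Per kb of region, H3ac over these genes was moderate. The mean over the 6 libraries ran from 1.80 RPM per kb at Rpl11 to 4.19 at Rpl7, a 2.32-fold range, with a median of 2.73. The median was 3.04 RPM per kb for promoter regions and 2.70 for all regions, and 23 of the 74 members lay above the promoter median. The highest levels were at Rpl7, Rpl17 (3.84 RPM per kb) and Rps7 (3.83), and the lowest at Rpl11, Rpl3 (2.00) and Rps3 (2.02). The Rpl7 region was shared with Rdh10 and reached 10838 bp before and 2661 bp after the Rpl7 start site. The Rps3 region was shared with Klhl35. Counted per region rather than per kb, the order of the medians turned, at 23.0 RPM for ribosomal protein regions and 18.6 RPM for promoter regions.

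The median level was also taken by role. It was 2.64 RPM per kb for 30 small subunit regions and 2.76 for 43 large subunit regions. It was 2.81 where genes held snoRNAs and 2.69 where they held none, and 2.82 in regions with no other start site and 2.72 in shared ones. Over all members the quartiles were 2.44 and 3.13 RPM per kb, and the differences between these medians were not tested.

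In every library the median member lay below the median promoter region. The Young libraries had member medians of 3.09 and 2.76 RPM per kb, the Old libraries of 2.40 and 2.28, and the OldAcetate libraries of 2.93 and 2.94. The medians of promoter regions in the same order were 3.48 and 3.16, then 2.63 and 2.52, then 3.24 and 3.11 RPM per kb. Both Old libraries lay below the other 4 in each set.

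**Figure D2:**
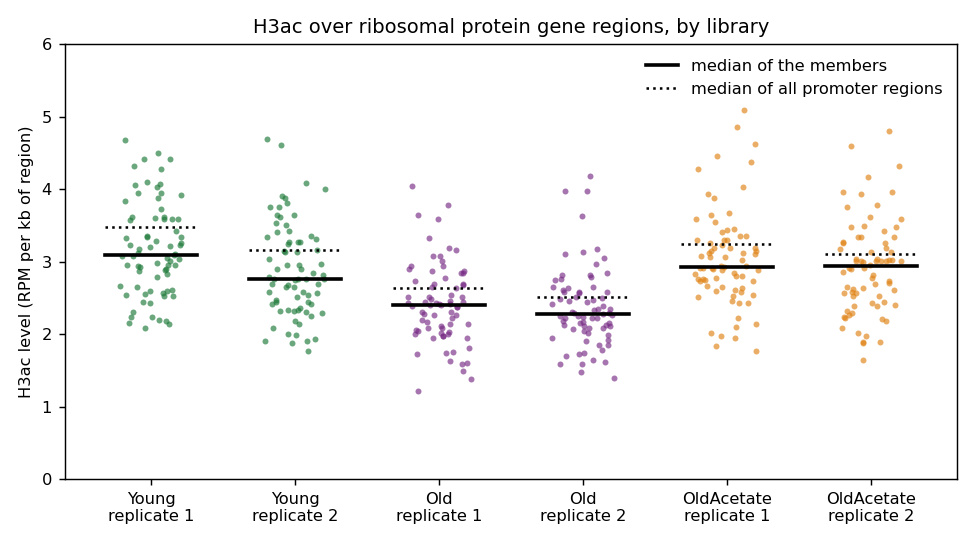
Each point is the H3ac level of 1 of the 74 ribosomal protein regions in 1 library, in RPM per kb of region, with the member median as a solid line and the median of all promoter regions as a dotted line. The solid line lies below the dotted one in all 6 libraries, and both lines are lowest in the Old libraries, where the member medians are 2.40 and 2.28.

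The summed H3ac of the members gave the first view of age and acetate. The 74 regions held 2780 and 2510 RPM in Young, 2087 and 2081 RPM in Old, and 2646 and 2525 RPM in OldAcetate. These sums include the regions shared with other genes, in which the members' own part cannot be told apart. Young thus had a mean of 2645 ± 191 RPM, Old of 2084 ± 4.12 RPM and OldAcetate of 2585 ± 85.9 RPM (SD, n = 2). The Old libraries lay below all others, and Young and OldAcetate overlapped.

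Set against all reads that fell in regions, that difference was not seen. The members held 0.429% and 0.434% of these reads in the Young libraries, 0.418% and 0.453% in the Old libraries, and 0.462% and 0.449% in the OldAcetate libraries. Young replicate 1 had a 95% Wilson interval from 0.420% to 0.438%, and such intervals cover counting error only. The means were 0.432% ± 0.00385, 0.436% ± 0.0248 and 0.455% ± 0.00944 (SD, n = 2), and the Old libraries spanned both Young values.

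The comparison of Old with Young asks how H3ac at these genes differs with age. With the values as given, 69 of the 74 members were lower in Old than in Young, as were 92.1% of all regions. The median log2 fold change was -0.33 for the members, -0.36 for promoter regions and -0.35 for all regions. In 50 members both Old libraries lay below both Young libraries, where 60.2% of all regions and 65.7% of promoter regions did so. limma on log2(RPM + 0.5) called 8 members lower at an adjusted p under 0.05, 10.8% of them, against 9.5% of all regions and 11.5% of promoter regions, and 0 members higher, against 0.0287% of all regions. After each library was scaled by its median deviation over all regions, limma called 0 of the 74, with a background of 0.00819%, and edgeR and DESeq2 with size factors also called 0. At an unadjusted p under 0.05, limma then had 3 members (background 5.54%). edgeR had 3 with RLE size factors, beside 1267 of the 24431 regions, and 4 with TMM size factors, beside 1265. DESeq2 had 0, beside 124. The scaled member median was 0.02, with 40 of 74 above 0 (54.1%, background 49.2%), and the groups were apart in 12 members with Old higher (background 16.9%) and in 8 with Old lower (background 17.1%). The scaled median was 0.07 without Old replicate 1, -0.04 without Old replicate 2 and 0.00 without Young replicate 2. The as-given calls, of members and of all regions, moved with the library left out. They were fewest without Young replicate 1, where no member call held. The as-given median was then -0.25 for the members and -0.28 for all regions. It was -0.43 and -0.44 without Young replicate 2, -0.34 and -0.41 without Old replicate 1, and -0.33 and -0.28 without Old replicate 2.

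Rps27l had the lowest fold change of the members. Its product is a variant of the small subunit protein Rps27 and the gene is a known p53 target. Its region of 3.5 kb at chr9:66944501-66948000 held 15.1 and 12.3 RPM in Young, 8.78 and 5.97 RPM in Old, and 12.8 and 13.8 RPM in OldAcetate. Both Old libraries were below the other 4. The as-given log2 fold change of Old against Young was -0.87 ± 0.28 (SE), with an adjusted p of 0.0407 in limma. After scaling it was -0.52 with an adjusted p of 0.894 in limma.

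Rpl15 encodes a large subunit protein found mutated in Diamond-Blackfan anemia. Its region at chr14:18263001-18273500, which also holds the start site of Nkiras1, had 37.8 and 33.1 RPM in Young, 16.6 and 24.7 RPM in Old, and 32.3 and 28.8 RPM in OldAcetate. The Old libraries were lowest, and OldAcetate lay between the groups without touching either. Old differed from Young by -0.79 ± 0.20 in log2 as given (limma adjusted p 0.0132) and by -0.44 after scaling (limma adjusted p 0.865).

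Rpl31, a large subunit protein beside the exit tunnel for the new chain, had a region of 6 kb with no other start site, at chr1:39365501-39371500. It held 24.3 and 22.9 RPM in Young, 13.9 and 15.9 RPM in Old, and 30.6 and 27.5 RPM in OldAcetate. Its 3 groups did not overlap, with Old lowest and OldAcetate highest. Old against Young was -0.65 ± 0.22 in log2 as given, with a limma adjusted p of 0.0422, and -0.30 after scaling, with 0.914.

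Rps15, a small subunit protein near the decoding site, shared its region with Apc2. It had 26.6 and 13.9 RPM in Young, 9.71 and 13.5 RPM in Old, and 17.8 and 19.2 RPM in OldAcetate. Its Young libraries stood farther apart than the groups did, and Young replicate 2 lay next to Old. The as-given log2 fold change of Old against Young was -0.72 ± 0.25, with a limma adjusted p of 0.0485.

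The other 4 members called lower as given were named after their values were seen. Rpl27a, a large subunit protein alone in a region of 15 kb, had 57.6 and 47.0 RPM in Young, 35.6 and 31.0 RPM in Old, and 51.7 and 45.5 RPM in OldAcetate. It differed by -0.64 ± 0.17 in log2 between Old and Young (limma adjusted p 0.0170). Old was lowest and OldAcetate overlapped Young.
Rpl7a, of the large subunit, shared 23 kb with the Surf1, Surf2, Surf6 and Med22 start sites and differed by -0.57 ± 0.15 (limma adjusted p 0.0172). Rps25, of the small subunit, shared its region with Slc37a4 and Trappc4 and differed by -0.58 ± 0.19 (limma adjusted p 0.0385). In such shared regions the gene's own part of the signal cannot be told apart.
The long region of Rps14 had 229 and 220 RPM in Young against 155 and 181 RPM in Old, a difference of -0.42 ± 0.11 (limma adjusted p 0.0143). The short region over its downstream start site had 14.5 and 9.39 RPM in Young against 14.3 and 9.55 RPM in Old, a difference of 0.0038 ± 0.28. The groups overlapped in the short region and were apart in the long one, and the difference between the 2 regions was not tested.

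A few members ran against the shift. Rpl8, a large subunit protein at the peptidyl transferase centre, had 22.4 and 18.8 RPM in Young, 24.0 and 23.1 RPM in Old, and 26.5 and 22.9 RPM in OldAcetate. It was the only member with both Old libraries above both Young libraries as given, where 1.29% of all regions were so. Its as-given difference was 0.20 ± 0.21 in log2 (limma adjusted p 0.499). After scaling it was the highest member, at 0.55 ± 0.19 in log2 (limma p 0.00631, adjusted p 0.810), followed by Rps7 at 0.46 and Rpl32 at 0.40. As given, Rps7 was at 0.11 ± 0.25 and Rpl32 at 0.05 ± 0.22, with overlapping groups.

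**Figure D3:**
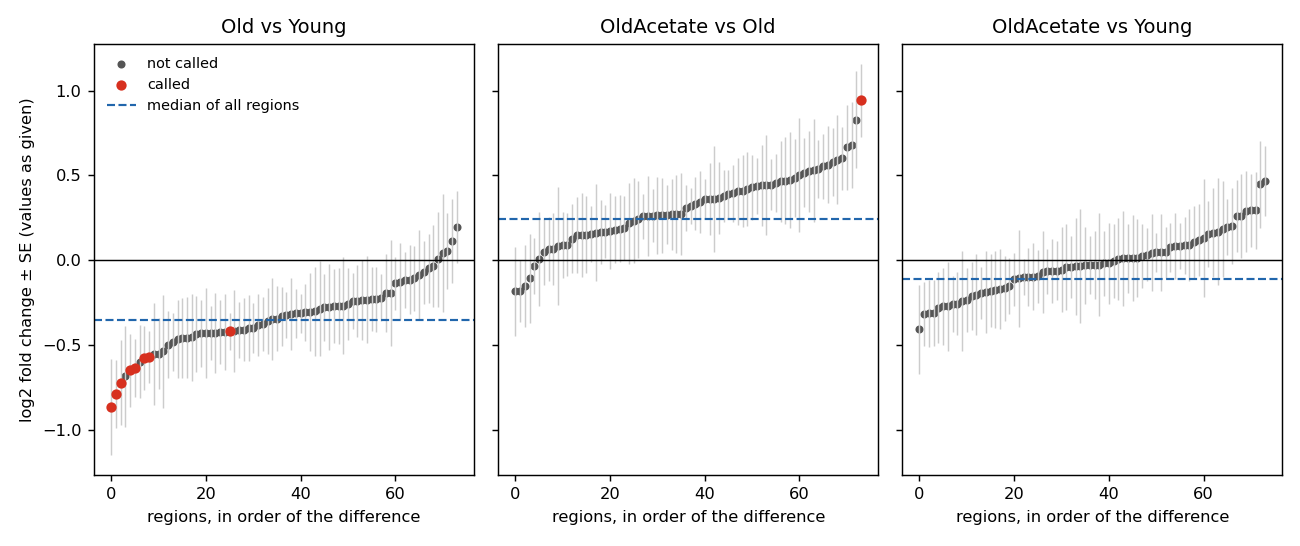
Each point is the log2 fold change of 1 of the 74 ribosomal protein regions with the values as given, with its SE, ranked within each comparison. The blue dashed line is the median over all regions, and red marks regions called by limma. Most members lie below 0 in Old vs Young and above 0 in OldAcetate vs Old, around the median of all regions, and 8 and 1 of them are called.

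The comparison of OldAcetate with Old asks what acetate does to H3ac in old cells, and it shares the Old libraries with the comparison above. With the values as given, 69 of 74 members were higher in OldAcetate, as were 83.2% of all regions. The median log2 fold change was 0.31 for the members, 0.29 for promoter regions and 0.24 for all regions. Both OldAcetate libraries lay above both Old libraries in 45 members, or 60.8%, against 47.1% of all regions and 58.0% of promoter regions. limma called 1 member higher, Rpl31, where 0.311% of all regions were called. After scaling, limma called 0 members and 0% of all regions, and edgeR and DESeq2 with size factors called 0. At an unadjusted p under 0.05 there were 5 members in limma (4 higher and 1 lower, background 6.24%). edgeR had 6 with RLE or TMM size factors, beside 1304 or 1314 of the 24431 regions, and DESeq2 had 1, beside 134. The scaled member median was 0.07, with 48 of 74 above 0 (64.9%, against 50.3% of all and 59.6% of promoter regions). With the scaling taken over promoter regions the median was 0.03 with 38 of 74 above 0, and it was 0.03 without the lowest 25% of regions and 0.03 in the 38 regions with no other start site. Without Old replicate 1 it was 0.00, with 38 of 74 above 0. The groups were apart after scaling in 17 members with OldAcetate higher (background 16.7%, promoter regions 21.8%). They were apart in 8 with it lower (background 17.2%, promoter regions 12.1%). The as-given calls, of members and of all regions, moved with the library left out, and the member call did not hold without either OldAcetate library. The as-given median was 0.28 for the members and 0.23 for all regions without OldAcetate replicate 1, and 0.35 and 0.26 without OldAcetate replicate 2. It was 0.30 and 0.29 without Old replicate 1, and 0.28 and 0.17 without Old replicate 2.

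Rpl31 differed by 0.94 ± 0.22 in log2 between OldAcetate and Old as given (limma adjusted p 0.0293), and by 0.70 ± 0.20 after scaling (limma adjusted p 0.474). Rps27l came next, at 0.83 ± 0.28 as given and 0.59 after scaling, with limma adjusted p of 0.124 and 0.777. For both, the OldAcetate libraries lay above both Old libraries before and after scaling.

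Rpl5 and Rpl11 carry 5S ribosomal RNA and, when free of ribosomes, bind Mdm2. Rpl5 had 15.8 and 11.8 RPM in Young, 12.02 and 11.1 RPM in Old, and 18.5 and 19.2 RPM in OldAcetate. Both OldAcetate libraries were above the other 4, and the scaled difference from Old was 0.44 ± 0.24 (limma adjusted p 0.818). Rpl11, its partner, had 20.7 and 16.7 RPM in Young, 11.6 and 18.3 RPM in Old, and 17.5 and 17.9 RPM in OldAcetate, and all 3 groups overlapped.

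Among the lowest members after scaling were the small subunit genes Rps3 and Rps10, which differed by -0.42 and -0.39 in log2. Rps3, at the mRNA entry channel, had 43.5 and 31.4 RPM in Old and 35.6 and 29.6 RPM in OldAcetate, with a limma p of 0.0114 and adjusted p of 0.734. Its libraries overlapped as given and were apart after scaling. Rps10 was the only member as given with both OldAcetate libraries below both Old ones, at 14.1 and 15.8 RPM against 17.1 and 16.3 RPM, where 3.46% of all regions were so.

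OldAcetate was also set against Young, with which the other comparisons share libraries. With the values as given, 42 members were lower and 32 higher in OldAcetate, while 69.2% of all regions were lower. The member median was -0.03 in log2, against -0.07 for promoter regions and -0.11 for all regions. OldAcetate lay wholly above Young in 11 members, where 7.6% of all and 9.90% of promoter regions did so. It lay wholly below in 15, where 29.8% of all and 24.3% of promoter regions did so. limma called 0 members with or without scaling (background 0%). After scaling the member median was 0.08, with 53 of 74 above 0 (71.6%, against 50.3% of all and 59.5% of promoter regions). With the scaling taken over promoter regions the median was 0.04 with 47 of 74 above 0, without Young replicate 1 it was 0.04 with 45 of 74, and without OldAcetate replicate 1 it was 0.05 with 47 of 74. The scaled groups were apart in 21 members with OldAcetate higher (background 17.7%, promoter regions 23.2%) and in 9 with it lower (background 18.1%, promoter regions 12.8%). At an unadjusted p under 0.05 after scaling, limma had 4 members, all higher in OldAcetate, against a background of 5.08%. edgeR had 6 with RLE or TMM size factors, beside 1652 or 1654 of the 24431 regions, and DESeq2 had 1, beside 98.

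Rps20, a small subunit head protein, had the largest scaled difference, 0.58 ± 0.19 in log2 (limma p 0.00299, adjusted p 0.964). It held 22.4 and 24.5 RPM in Young, 26.8 and 19.1 RPM in Old, and 32.6 and 32.5 RPM in OldAcetate. OldAcetate was above all other libraries, and Old spanned Young. Rps6, the small subunit protein that S6 kinase phosphorylates, had 18.4 and 20.0 RPM in Young, 16.2 and 15.5 RPM in Old, and 23.5 and 23.8 RPM in OldAcetate. Its groups did not overlap, and its scaled difference from Young was 0.40 ± 0.21 (limma adjusted p 0.964). Rpl6, Rpl17 and Rpl19, of the large subunit, were lowest, at -0.30, -0.21 and -0.20 after scaling.

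**Figure D4:**
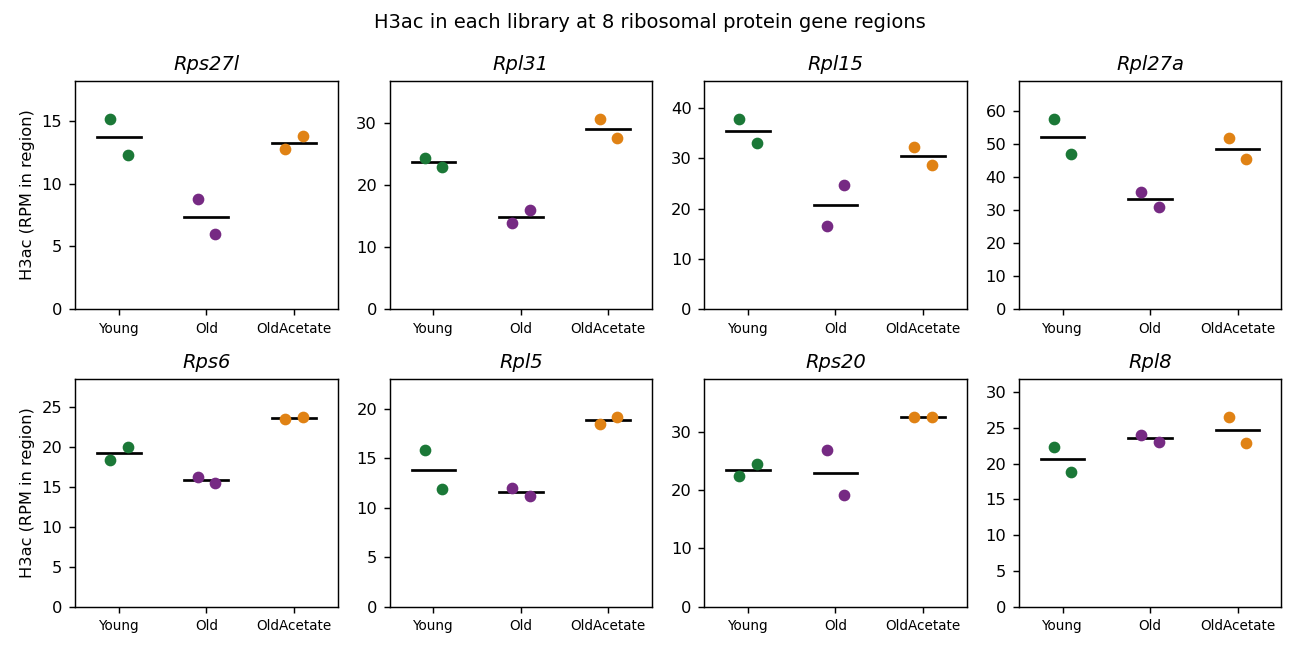
Points are the RPM of single libraries in the regions of 8 named members, and lines are the group means of 2 libraries, with every axis starting at 0. In Rps27l, Rpl31, Rpl15 and Rpl27a both Old libraries lie below the other 4, in Rps6, Rpl5 and Rps20 both OldAcetate libraries lie above the other 4, and in Rpl8 both Old libraries lie above both Young ones.

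The remaining members with known special roles did not pass the test in any comparison, as given or scaled. The stalk proteins Rplp0, Rplp1 and Rplp2, which recruit elongation factors, had as-given log2 differences between Old and Young of -0.32, -0.55 and -0.31. Rpl38 and Rpl10a, which have been tied to the translation of chosen mRNAs in development, differed by -0.48 and -0.47. Rpsa, also known as a laminin receptor, Rps19, the gene most often mutated in Diamond-Blackfan anemia, and Rps27a, made as a fusion with ubiquitin, differed by -0.46, -0.24 and -0.29. All of these as-given values were negative, and of them only Rpl38, Rplp1, Rpl10a and Rpsa were below the all-region median of -0.35.
Rpl3, near the peptidyl transferase centre, was coded without Old but had 17.6 and 15.9 RPM there, against 26.0 and 20.0 RPM in Young and 19.5 and 20.9 RPM in OldAcetate. Its Old libraries were lowest, and its as-given difference from Young was -0.44 ± 0.22 (limma adjusted p 0.162).
Rpl22l1 and Rpl7l1 are paralogs of the name rule, and neither passed the test. Rpl22l1 had 25.0 and 27.4 RPM in Young against 17.1 and 17.1 RPM in Old, a difference of -0.60 ± 0.22 (limma adjusted p 0.0566). Rpl7l1, a ribosome assembly factor related to Rpl7, had 6.58 and 7.35 RPM in Young against 9.24 and 5.57 RPM in Old, a difference of 0.04 ± 0.35, and the groups overlapped.

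Other genes of translation and ribosome assembly were counted in lists. All 17 genes of the list of ribosomal protein genes outside the name rule and other TOP mRNAs had a region, 18 regions in all. With the values as given, 5 of the 18 were called lower in Old than in Young by limma, or 27.8%, against 9.5% of all regions and 11.5% of promoter regions, with a median log2 difference of -0.42. They were Eef2 (-0.62), which moves the ribosome along the mRNA, Eef1g (-0.49), an elongation factor subunit, Rack1 (-0.53), a scaffold on the small subunit, Fau (-0.69), which encodes a small subunit protein, and Hnrnpa1 (-0.64), an RNA-binding protein. Eef2 had 41.1 and 34.3 RPM in Young, 25.4 and 23.1 RPM in Old, and 33.3 and 39.2 RPM in OldAcetate, with Old below the others. Fewer of the 18 were called when any single library was left out, and fewest without Young replicate 1. Over all regions the calls were also fewest without Young replicate 1, but they rose without Old replicate 1. With all libraries, none of the 18 was called in the other comparisons or after scaling, and the median was 0.38 for OldAcetate against Old.

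Of 29 ribosome biogenesis genes, all had a region and 4 were called lower in Old as given, or 13.8%, with a list median of -0.28 against -0.35 for all regions. These were Rrs1 (-0.71) and Bop1 (-0.45), needed to assemble the large subunit, Ncl (-0.72), the nucleolar protein nucleolin, and Tsr1 (-0.75), needed for the small subunit. Of 13 regulators, 12 had a region, Rps6kb2 had none, and 1 was called, or 8.33%, Rheb (-0.56), the activator of mTORC1. Mitochondrial ribosomal proteins, which build a separate ribosome, had regions for 76 of 78 genes and 8 of 78 regions called lower, or 10.3%, with a median of -0.34. These shares lie near the 9.5% called over all regions. Fewer biogenesis and mitochondrial regions were called when any single library was left out, and fewest without Young replicate 1. The calls over all regions rose without Old replicate 1, and the calls in these lists did not. The regulator call did not hold without Young replicate 1 or Old replicate 2. In OldAcetate against Old, the only call in these lists was Mrpl53, 0.67 higher. The mitochondrial list lost such calls without Old replicate 2 or either OldAcetate library, and kept them without Old replicate 1 or either Young library. After scaling, limma called 0 regions of every list in all 3 comparisons.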

How the data were processed

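H3ac CUT&RUN was profiled in 6 libraries, 2 each of Young, Old and OldAcetate, grouped by the labels. The deposited table holds RPM values for jointly listed regions, 1 column per library. It is named as RPKM, but its values were not divided by region length. All values were whole multiples of the RPM of 1 read (100% within a tolerance of 0.01), so reads and library totals were recovered. The submitters' processing notes name mm10, Bowtie2 and Picard. The versions and the region caller are not given in the sources used here, and whether yeast DNA added with the stop buffer was used for scaling is not stated. The region codes are not defined by the labels.

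The members and lists were chosen with earlier results of these data known. limma 3.58.1 in R 4.3.3 was fitted to log2(RPM + 0.5) of all 24431 regions and 6 libraries, with group means, library scaling by the median deviation from region means, eBayes with trend and robust, and Benjamini-Hochberg adjustment at 0.05. Fold changes include the pseudocount of 0.5 and so understate the change where a region's value is low. Because scaling removes a shift shared by all regions, the same fit without scaling ("as given") is printed beside it. The named members were those with set roles, paralogs, the 3 highest and 3 lowest by scaled change and by level, calls, and members without a region. Some members and markers are not reported here by name. Alternatives were edgeR 4.0.16 and DESeq2 1.42.0 on the recovered reads, pseudocounts of 0.1 and 1, no scaling, quantile normalization, scaling over promoter regions only, removal of the lowest 25% of regions, a threshold of 0.01, a replicate block and leaving out libraries. The fits were tested on simulated data. Figures were drawn with matplotlib 3.10.9.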

Additional observations from a re-analysis of the deposited data

How the results depend on the processing

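Without scaling, the member medians moved to -0.33, 0.31 and -0.028 in log2 for Old vs Young, OldAcetate vs Old and OldAcetate vs Young, and to -0.34, 0.32 and -0.035 in edgeR without factors. The counts of called members went from 0 to 8 and 1 in limma and to 7 and 1 in edgeR for the first 2 comparisons, by the construction of these fits, which keep the shift shared by all regions. The replicate number as a block changed no scaled call (0 members in each comparison). It raised the as-given count of Old vs Young from 8 to 13 members, where 13.1% of all regions were called. The difference between replicates 1 and 2, taken after scaling, was correlated between groups. Its r lay between -0.04 and 0.01 over all regions and between -0.25 and -0.09 over the members. This r cannot see a shift shared by all regions, which the as-given fits keep. Leaving out libraries kept the scaled counts at 0, with member medians from -0.042 to 0.067, 0.00023 to 0.11 and 0.040 to 0.11, so the sign of the first is not fixed. The as-given counts ran from 0 to 11 for Old vs Young and from 0 to 3 for OldAcetate vs Old, and the cause was not tested. A median of 60.5 reads sets a counting error of 12.9% per member and library. The share of region reads in member regions fell from 0.441% to 0.143% when shared regions were left out, since fewer regions enter. Over all 3 comparisons and the alternatives, the 29 named members with a region moved by less than their SE in 1504 values, by more in 134 and past the threshold in 9, all 9 without scaling. Leaving out a library changed the sign of up to 9 of their 87 fold changes. The as-given fits that leave out libraries, for members and lists, or use the block were chosen after seeing the data.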
